A study of Mus musculus with 6 samples.

Results

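The genes described here are 10 genes of bile acid synthesis and transport in mouse liver, chosen by name: the enzyme genes Cyp7a1, Cyp8b1, Cyp27a1 and Cyp7b1, the transporter genes Slc10a1, Abcb11, Abcc2 and Abcc3, and the nuclear receptor genes Nr1h4 and Nr0b2. All 10 were found among the 22068 gene symbols of the deposited tables, and all 10 passed the filter of a mean of at least 1 RPKM (reads per kilobase, scaled to the reads of the library), as did 11062 symbols in all. Livers came from C57BL/6 mice at the age of 6 weeks, and their polyadenylated RNA was sequenced. The labels name 3 libraries Mst1/2 liver-dKO (dKO here; Mst1-/-, Mst2fl/fl, alb-Cre+/+) and 3 control libraries (Mst1-/-, Mst2fl/fl, alb-Cre-/-). Mice of both groups thus lacked Mst1 and carried a loxP-flanked Mst2, and they differed in the Cre transgene, which is driven by the promoter of albumin, a gene of hepatocytes and of their fetal precursors. Mst1 and Mst2 are kinases of the Hippo pathway, which holds back the coactivators YAP and TAZ.

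Hepatocytes make bile acids from cholesterol by a classic route that starts with the enzyme CYP7A1 and an alternative route that starts with CYP27A1. Bile acids returning from the gut are taken up from the blood at the basolateral membrane, and new and returning bile acids are pumped into the bile canaliculus at the opposite membrane. The nuclear receptor FXR senses bile acids and raises expression of the small heterodimer partner SHP, and SHP dampens the synthesis genes, so that bile acids limit their own production.

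In dKO livers 2 of the 10 genes were called higher and 1 lower. Cyp8b1, the sterol 12-alpha-hydroxylase that directs synthesis towards cholic acid, averaged 83.0 ± 4.95 RPKM in dKO livers and 16.4 ± 12.9 RPKM in control livers (SD, n = 3 each). Abcc3, which encodes the basolateral exporter MRP3, averaged 78.0 ± 4.64 RPKM in dKO livers and 32.0 ± 2.74 RPKM in control livers. Slc10a1, which encodes the sodium-dependent bile acid uptake carrier NTCP, averaged 121 ± 41.1 RPKM in dKO livers and 287 ± 23.8 RPKM in control livers. The other 7 genes, among them Cyp7a1, Nr1h4 and Nr0b2, were not called. Calls are at a Benjamini-Hochberg adjusted p under 0.05, from limma on log2(RPKM + 1) across all 11062 tested genes. Over all tested genes the same rule called 19.9%, of which increases made up 17.8% and decreases 2.17% of the genes tested.

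**Figure D1:**
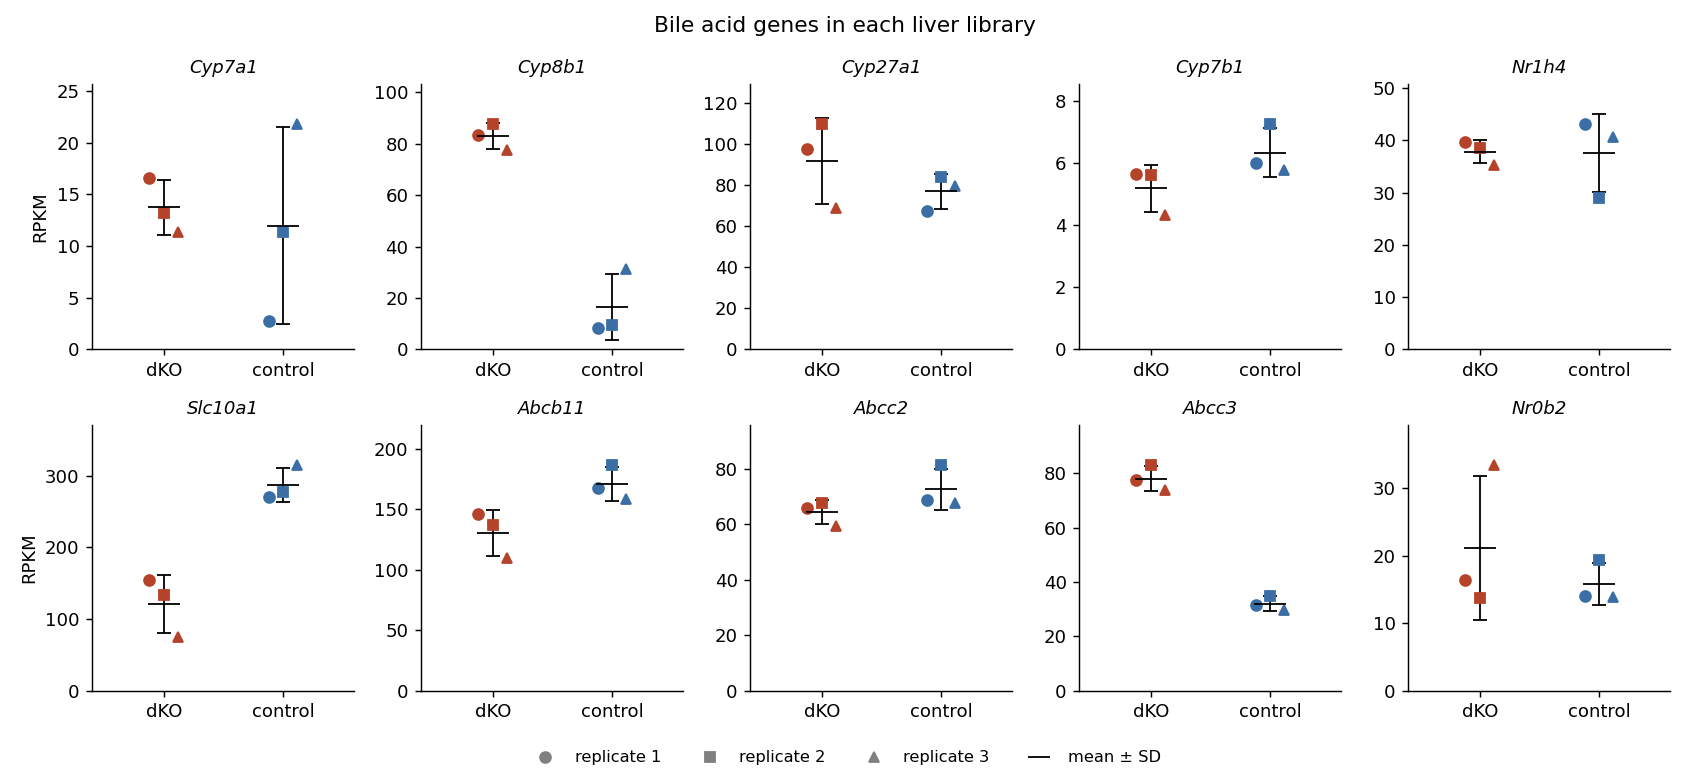
RPKM of each of the 10 genes (vertical axes, each from 0) in the 3 dKO and 3 control libraries; points are libraries, with a marker shape for each replicate number, and bars are the mean ± SD. Cyp8b1 and Abcc3 lay higher in every dKO library than in any control library and Slc10a1 lower, while Cyp7a1, Cyp27a1, Nr1h4 and Nr0b2 overlapped between the groups.

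The libraries differed in ways that bear on every value. RPKM summed to between 324034 and 352678 in dKO and between 364571 and 368246 in control libraries. Depth, which the files do not give, was estimated from the steps between low values at 20.7 to 24.6 M reads in dKO and 16.95 to 24.8 M reads in control libraries. Median-ratio scaling of the RPKM lowered the median log2 change of all tested genes by 0.24, from 0.23 to -0.01, and with it 7.89% of the tested genes were called higher and 5.55% lower. On the first principal component dKO replicate 3 lay at -49.0 and the other dKO libraries at -20.3 and -19.2. Among the 10 genes, dKO replicate 3 held the lowest dKO value of 9 and the highest of 1, Nr0b2. The targeted genes, named Stk3 (Mst2) and Stk4 (Mst1) in mouse nomenclature, were present in all libraries: Stk3 had 5.13, 4.25 and 5.32 RPKM in dKO and 6.00, 5.42 and 5.20 RPKM in control libraries, and Stk4 had 5.84, 4.93 and 5.76 RPKM in dKO and 5.50, 4.69 and 4.66 RPKM in control libraries. Since the values are per gene and a deleted exon would not show in them, the genotype was not checked by these levels. Nothing in the labels says that replicates were separate animals, and p-values then measure only how far these samples spread, which may be technical variation.

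Of the synthesis enzymes, Cyp8b1 was the one called. It had 83.6, 87.6 and 77.8 RPKM in dKO replicates 1, 2 and 3, and 8.52, 9.38 and 31.3 RPKM in control replicates 1, 2 and 3. The dKO libraries lay close together, and the lowest of them was 2.48 times the highest control library. Control replicate 3 stood above the other controls, at 3.68 times the lowest of them. The dKO mean was 5.06 times the control mean, and 9.27 times without control replicate 3. Its log2 change of 2.51 ± 0.45 (SE) had an adjusted p of 0.0141 in limma, and 40 of the 11062 tested genes had a higher one. After median-ratio scaling it was 2.23 with an adjusted p of 0.0245.

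Promoter sequence is shown for Cyp8b1 as the synthesis gene that changed, for Slc10a1 as the transporter gene that fell and for Nr0b2 because it encodes the repressor that acts on the synthesis genes. RefSeq entries on GRCm38.p6 were found for 7 of the 10 genes; Cyp7a1, Cyp7b1 and Abcc3 had none. Each run is the 250 bases before the annotated start, 5′ to 3′ on the gene's strand: Cyp8b1 at chr9:121916306-121916555 on the minus strand, Slc10a1 at chr12:80968706-80968955 on the minus strand (the more upstream of its 2 entries), and Nr0b2 at chr4:133553126-133553375 on the plus strand. Capitals mark a match to any of 5 words searched on both strands. The words were AGGTCA (half-site of nuclear receptors), TCAAGG (core of the site of NR5A2, also called LRH-1), CAAAGTCCA (a word of HNF4A sites), GTTAAT (half-site of HNF1) and GGAATG (the TEAD word, TEAD proteins being the DNA-binding partners of YAP). AGGTCA and TCAAGG can overlap in a full NR5A2 site, and no such overlap occurred here.
Cyp8b1: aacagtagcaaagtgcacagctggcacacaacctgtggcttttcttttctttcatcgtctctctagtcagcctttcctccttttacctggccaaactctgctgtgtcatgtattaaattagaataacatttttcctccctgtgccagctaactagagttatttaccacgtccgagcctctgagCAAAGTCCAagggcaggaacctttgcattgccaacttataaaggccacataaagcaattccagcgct
Slc10a1: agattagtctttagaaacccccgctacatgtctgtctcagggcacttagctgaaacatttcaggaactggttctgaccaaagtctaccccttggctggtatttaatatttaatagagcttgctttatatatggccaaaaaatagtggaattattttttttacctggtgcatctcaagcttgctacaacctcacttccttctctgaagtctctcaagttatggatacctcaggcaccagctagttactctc
Nr0b2: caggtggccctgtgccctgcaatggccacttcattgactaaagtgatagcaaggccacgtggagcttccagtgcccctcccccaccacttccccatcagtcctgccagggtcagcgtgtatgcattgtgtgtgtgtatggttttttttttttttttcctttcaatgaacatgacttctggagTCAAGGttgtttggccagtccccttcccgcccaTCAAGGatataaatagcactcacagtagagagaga

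The Cyp8b1 window held CAAAGTCCA at positions -67 to -59 from the start, a word present in 0.384% of 32851 promoter windows of that length. The Nr0b2 window held TCAAGG at -68 to -63 and at -35 to -30, and 12.5% of all windows held that word at least once. None of the 5 words was found in the Slc10a1 window shown, and its other entry held AGGTCA once, at -87 to -82. AGGTCA occurred in 14.0% of all windows, among them those of Abcb11, Abcc2 and Nr1h4, and Nr1h4 also held GTTAAT, found in 6.43%. GGAATG occurred in 12.6% of all windows and in none of those of the 7 genes. A match is a run of letters and was not tested as a binding site, and the words were chosen after the values were seen.

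Cyp7a1, the rate-limiting enzyme of the classic route, did not pass the test. It had 16.6, 13.2 and 11.4 RPKM in dKO libraries, and 2.78, 11.4 and 21.8 RPKM in control libraries. The dKO values lay inside the control range, within which the highest library was 7.84 times the lowest. The log2 change was 0.52 with a 95% interval of -1.07 to 2.10 (not adjusted for the number of genes) and a limma adjusted p of 0.585, and it was -0.20 without control replicate 1. A decrease or an increase within that interval was not excluded by these libraries.

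Cyp27a1, the mitochondrial sterol 27-hydroxylase of the alternative route, had 97.2, 109 and 68.6 RPKM in dKO libraries, and 67.4, 83.7 and 79.5 RPKM in control libraries. The groups overlapped, with dKO replicate 3 near the lowest control. Its log2 change of 0.23 (95% interval -0.22 to 0.68, limma adjusted p = 0.408) equalled the median of all tested genes and was -0.05 after median-ratio scaling. Cyp7b1, the oxysterol 7-alpha-hydroxylase of the same route, had 5.63, 5.63 and 4.32 RPKM in dKO libraries, and 5.99, 7.25 and 5.78 RPKM in control libraries. All dKO values lay below all control values, but the log2 change of -0.25 (95% interval -0.58 to 0.09) had a limma adjusted p of 0.244. Cyp7b1 is known to be higher in male than in female mouse liver, and the labels give no sex. Xist, the RNA of the inactive X chromosome, stood at 79.7 to 93.5 RPKM in dKO and 55.7 to 65.1 RPKM in control libraries, and 4 Y-linked genes summed to at most 0.00897 RPKM in dKO and 0.0270 RPKM in control libraries. By these transcripts all 6 libraries read as female.

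Ratios within a library do not depend on how the library was scaled, and those given here were chosen after the values were seen. Cyp8b1 was 5.03, 6.62 and 6.82 times Cyp7a1 in dKO libraries, and 3.07, 0.826 and 1.44 times in control libraries. Every dKO ratio of this pair exceeded every control ratio. Cyp27a1 was 5.85, 8.27 and 6.02 times Cyp7a1 in dKO libraries, and 24.2, 7.37 and 3.65 times in control libraries, where the groups overlapped.

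Of the 4 transporter genes, the uptake carrier was called lower and the basolateral exporter higher. Slc10a1 had 154, 134 and 75.1 RPKM in dKO libraries, and 270.5, 277 and 315 RPKM in control libraries. The highest dKO library was at 0.570 of the lowest control library, and dKO replicate 3 was the lowest of all. Its log2 change of -1.30 ± 0.26 (SE) had an adjusted p of 0.0133 in limma, and 70 of the tested genes had a lower one. It was -0.99 without dKO replicate 3 and -1.59 after median-ratio scaling, both still called. The summed level of 11 hepatocyte markers stood at 53576, 54031 and 47377 RPKM in dKO libraries and 70994, 54725 and 71181 RPKM in control libraries. Most of that sum was Alb, with 37822, 37626 and 34054 RPKM in dKO and 46467, 36157 and 46961 RPKM in control libraries. Alb overlapped between the groups and was not called (limma adjusted p = 0.527). Of the 11 markers, 4 were called lower, beside 2.17% of all tested genes, and limma called none higher, with 0 at an unadjusted p under 0.05. The 4 decreases became 2 after median-ratio scaling, and 0 after quantile normalization, without a filter, and without dKO replicate 1 or 3 or control replicate 1 or 3. They numbered 7 with sample weights, 3 without dKO replicate 2 and 4 without control replicate 2. With all libraries, 5 of the 11 had an unadjusted p under 0.05 in limma. The part of these markers in the Slc10a1 result was not tested, and in bulk tissue fewer cells of a type and less RNA per cell cannot be told apart.

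Abcc3 had 77.3, 82.9 and 73.7 RPKM in dKO libraries, and 31.5, 35.0 and 29.6 RPKM in control libraries. Each group was tight, with coefficients of variation of 5.95% in dKO and 8.58% in control libraries, and the lowest dKO library was 2.11 times the highest control. The dKO mean was 2.44 times the control mean, for a log2 change of 1.26 ± 0.13 (SE) and an adjusted p of 0.00118 in limma, and 336 tested genes had a higher one. After median-ratio scaling it was 0.98 with an adjusted p of 0.00871. Abcc3 is also expressed by cholangiocytes, and markers of that cell type moved the same way. The 14 markers summed to 549.8, 394 and 1079 RPKM in dKO libraries and to 44.2, 43.9 and 98.8 RPKM in control libraries, with none at 0 in all libraries. Most of the dKO sums was Spp1, with 454, 306 and 910 RPKM in dKO and 20.9, 18.7 and 64.7 RPKM in control libraries. All 9 that could be tested were called higher (8 after median-ratio scaling), Epcam among them having passed the filter through its dKO level alone, while 5 did not reach a mean of 1 RPKM, including Krt7 and Cftr. Within the dKO group the cholangiocyte sum was highest in replicate 3, which held the lowest dKO value of 9 of the 10 genes, Abcc3 among them. An order of 3 libraries was not read as a result. The part of these cells in the Abcc3 result was not tested.

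The canalicular exporters were not called. Abcb11, which encodes the bile salt export pump, had 146, 137 and 109 RPKM in dKO libraries, and 168, 186 and 159 RPKM in control libraries. Abcc2, which encodes MRP2, the exporter of bilirubin conjugates and other organic anions, had 65.9, 67.6 and 59.3 RPKM in dKO libraries, and 68.7, 81.1 and 67.7 RPKM in control libraries. In both genes every dKO library lay below every control library, for Abcc2 by a small margin (67.6 against 67.7 RPKM). The log2 change was -0.39 for Abcb11 (95% interval -0.78 to -0.01, limma adjusted p = 0.126) and -0.17 for Abcc2 (95% interval -0.49 to 0.15, adjusted p = 0.404). After median-ratio scaling these were -0.68 and -0.45, with adjusted p of 0.0617 and 0.0918.

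Counting genes whose groups did not overlap, 2 of the 10 (Cyp8b1 and Abcc3) were higher and 4 (Slc10a1, Abcb11, Abcc2 and Cyp7b1) lower in dKO livers, beside 38.3% higher and 6.73% lower (45.1% in all) among all tested genes. The median log2 change of the 10 genes was 0.13, beside 0.23 over all tested genes.

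**Figure D2:**
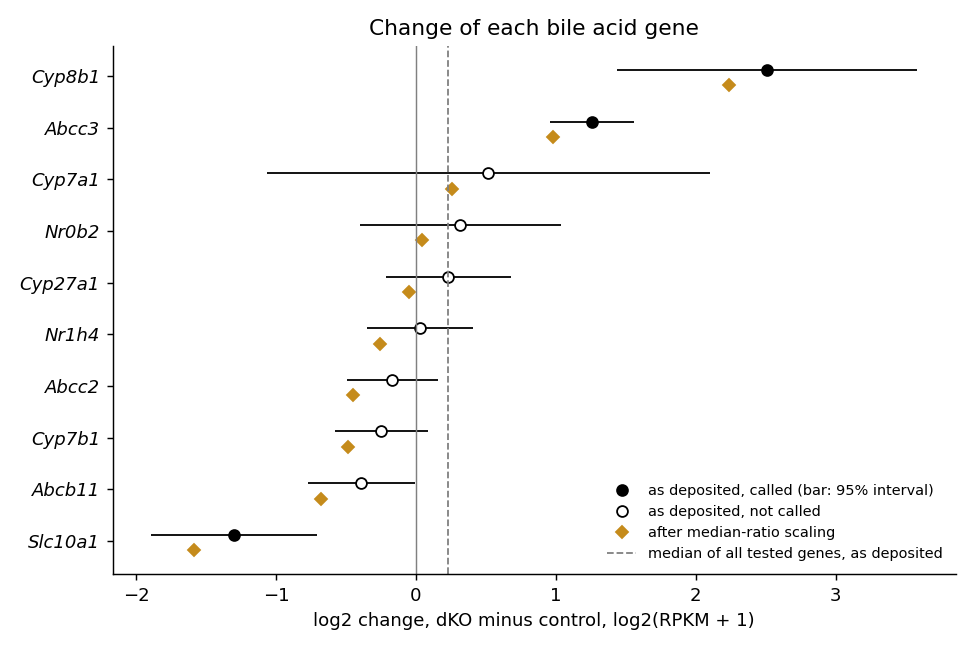
Log2(RPKM + 1) of dKO minus that of control livers for each gene, with its 95% interval (circles; filled where called) and after median-ratio scaling (diamonds); the dashed line is the median of all tested genes, 0.23. Cyp8b1 and Abcc3 lay to the right and Slc10a1 to the left under both scalings, and the interval of Cyp7a1 was the widest.

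The order of the transporters by level differed between the groups. In dKO livers Abcb11 (131 RPKM on average) came before Slc10a1 (121), then Abcc3 (78.0) and Abcc2 (64.3), and the range of Slc10a1 overlapped those of Abcb11 and Abcc3. In control livers Slc10a1 (287) came before Abcb11 (171), Abcc2 (72.5) and Abcc3 (32.0), with no overlap between neighbours. Within each library, Abcc3 was 1.17, 1.23 and 1.24 times Abcc2 in dKO libraries, and 0.458, 0.431 and 0.436 times in control libraries. Abcc3 was 0.501, 0.618 and 0.981 times Slc10a1 in dKO libraries, and 0.116, 0.126 and 0.0939 times in control libraries. Slc10a1 was 1.06, 0.979 and 0.687 times Abcb11 in dKO libraries, and 1.61, 1.49 and 1.98 times in control libraries. In each of these ratios the groups were apart. For Abcc3 over Abcc2 and Abcc3 over Slc10a1 they had to be, since Abcc3 was higher and the other gene lower in every dKO library.

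**Figure D3:**
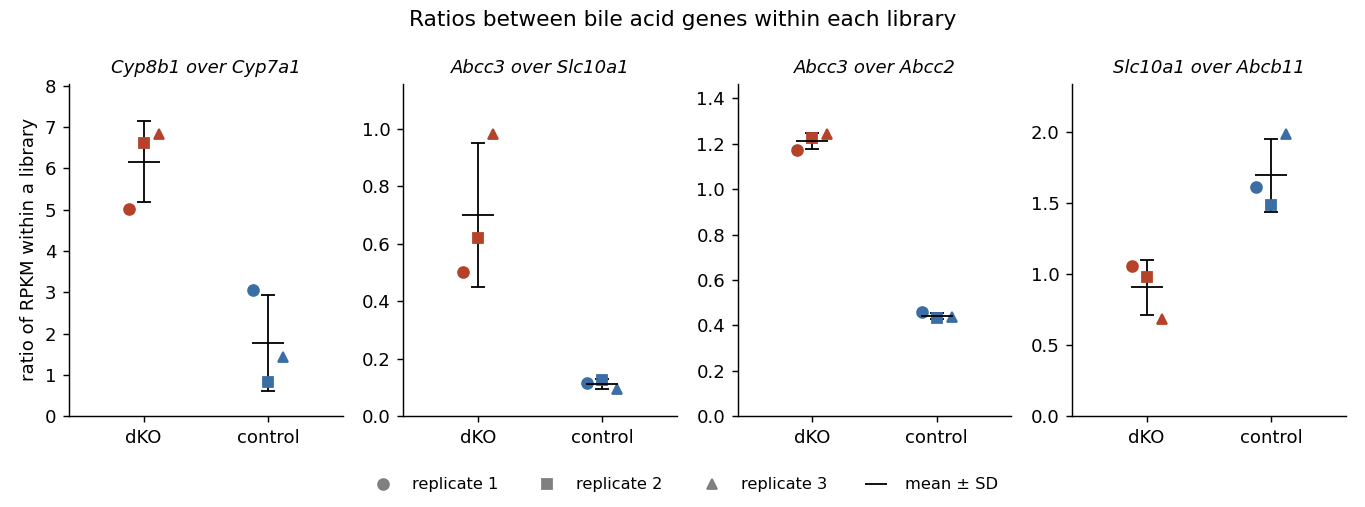
Ratios of RPKM between pairs of the 10 genes within each library (vertical axes from 0), with the mean ± SD of each group. The dKO ratios of Cyp8b1 over Cyp7a1, Abcc3 over Slc10a1 and Abcc3 over Abcc2 lay above the control ratios, and those of Slc10a1 over Abcb11 lay below.

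The bile acid sensor and its partner were not called. Nr1h4, which encodes FXR, had 39.6, 38.5 and 35.3 RPKM in dKO libraries, and 43.1, 29.1 and 40.6 RPKM in control libraries. Its log2 change was 0.03 (95% interval -0.35 to 0.41, limma adjusted p = 0.918), and it was -0.25 after median-ratio scaling. Nr0b2, which encodes SHP and whose promoter window is shown above, had 16.4, 13.7 and 33.3 RPKM in dKO libraries, and 14.0, 19.4 and 13.9 RPKM in control libraries. One dKO library, replicate 3, stood apart from the others of both groups. The log2 change of 0.32 (95% interval -0.40 to 1.04, limma adjusted p = 0.474) became -0.05 without that library.

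The other genes of the pathway were taken from lists ordered by role, 59 genes of which 53 were tested. Of these, 6 were called higher and 8 lower in dKO livers, beside the 17.8% and 2.17% of all tested genes, and after median-ratio scaling the counts were 5 and 13. The increases count Slc10a2, which passed the filter through its dKO level alone and so had to differ. The decreases numbered 5 and 4 without dKO replicates 2 and 3, and 3 and 2 without control replicates 1 and 3. Their median log2 change was -0.01.

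Of 16 tested genes of side-chain and ring modification and conjugation, limma called 6 lower and 0 higher, with 1 higher at an unadjusted p under 0.05. Cyp2c70, the enzyme that makes muricholic acids in mice, had 293, 276 and 218 RPKM in dKO libraries, and 608, 667 and 480 RPKM in control libraries. Its dKO mean was 0.449 of the control mean (log2 change -1.15 ± 0.20 SE, limma adjusted p = 0.00858). Hsd3b7, the C27 steroid dehydrogenase that follows CYP7A1, averaged 95.2 ± 20.4 RPKM in dKO livers and 177 ± 26.0 RPKM in control livers, with an adjusted p of 0.0192. Cyp39a1, an oxysterol 7-alpha-hydroxylase, averaged 13.2 ± 1.19 RPKM in dKO livers and 20.1 ± 1.90 RPKM in control livers, with an adjusted p of 0.0179. The remaining decreases, named after their values were seen, were Slc27a2 (an acyl-CoA synthetase), Ehhadh (a peroxisomal beta-oxidation enzyme) and Por (the electron donor of microsomal cytochromes P450). The 6 decreases became 2 and 3 without dKO replicates 2 and 3, and 2 and 1 without control replicates 1 and 3; of the 6 genes, Cyp2c70 was called with every library left out. The conjugation genes were not called. Baat, the amino acid transferase, had 106, 119 and 93.7 RPKM in dKO and 55.1, 97.2 and 67.0 RPKM in control libraries (limma adjusted p = 0.0949). That adjusted p was 0.433 after median-ratio scaling, and from 0.0196 (without control replicate 2) to 0.267 with 1 library left out. Slc27a5, the bile acyl-CoA synthetase, had 223, 242 and 131 RPKM in dKO and 266, 306 and 282 RPKM in control libraries (adjusted p = 0.124).

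Among 18 tested transport genes 4 were called higher and 2 lower, beside 17.8% and 2.17% of all tested genes, and after median-ratio scaling 3 were called higher and 4 lower. These increases count Slc10a2, whose call carries no weight for the reason given next. Slc10a2, which encodes the apical bile acid transporter ASBT of ileum and cholangiocytes, had 7.27, 11.5 and 8.03 RPKM in dKO libraries, and 0.389, 0.464 and 0.909 RPKM in control libraries. The gene passed the filter of 1 RPKM through its dKO level alone, since every control library was under 1 RPKM, so it had to differ and its test is not given. The tested cholangiocyte markers given above were also called higher in dKO livers. Within the dKO group the cholangiocyte sum, which was mostly Spp1, was lowest in replicate 2, where Slc10a2 was highest. Nothing is concluded from the order of 3 libraries. Of 8 intestinal markers 1 of 2 tested (Fabp2) was called higher, a call lost after median-ratio scaling and without dKO replicate 1 or 2 or control replicate 1 or 3. Cdx1, Cdx2 and Fabp6 were at 0 in all 6 libraries. The part of either list in the Slc10a2 result was not tested. Abcb1a, a P-glycoprotein gene whose reads can be shared with its close paralog, averaged 14.8 ± 1.11 RPKM in dKO livers and 3.55 ± 0.83 RPKM in control livers (adjusted p = 0.000607). Ephx1, microsomal epoxide hydrolase, averaged 299 ± 15.0 RPKM in dKO livers and 117 ± 21.7 RPKM in control livers (adjusted p = 0.00300).

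Slco1b2, which encodes the sodium-independent uptake carrier OATP1B2, had 158, 146 and 86.5 RPKM in dKO libraries, and 263, 324 and 253 RPKM in control libraries. Like Slc10a1 it fell, with a dKO mean at 0.465 of the control mean and an adjusted p of 0.0163, which was 0.0536 without control replicate 1. Abcb4, the canalicular phospholipid flippase, averaged 70.4 ± 1.17 RPKM in dKO livers and 47.6 ± 3.53 RPKM in control livers. Its adjusted p of 0.0216 became 0.245 after median-ratio scaling and 0.0540 to 0.0677 without dKO replicate 1 or 2 or control replicate 1 or 3. The other decrease was Abcg8 (named after its values were seen), a half-transporter of sterols, whose call was lost without dKO replicate 3 or control replicate 3. The basolateral exporters Abcc4 (MRP4) and Slc51b, a subunit of the organic solute transporter listed as Ostb, were not called, at 3.21 ± 1.86 and 5.12 ± 0.28 RPKM in dKO livers and 1.49 ± 0.44 and 5.03 ± 1.92 RPKM in control livers. For Abcc4 the limma adjusted p ran from 0.0299 (without dKO replicate 2) to 0.404 with 1 library left out. After median-ratio scaling it was 0.273.

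**Figure D4:**
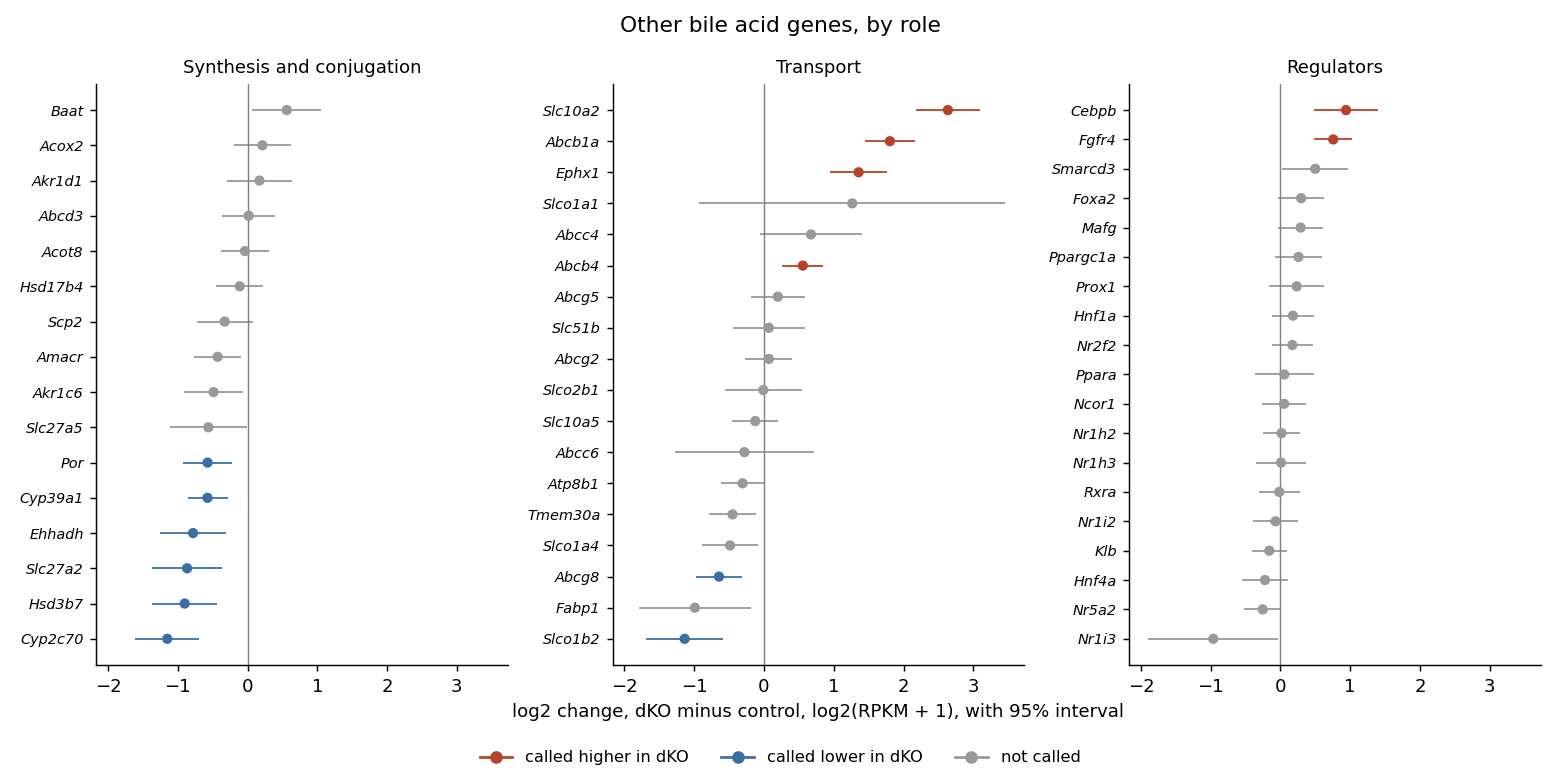
Log2 changes (dKO minus control, log2(RPKM + 1)) with 95% intervals for the 53 other tested genes of the pathway, in 3 panels by role; red marks genes called higher, blue genes called lower and grey genes not called. Slc10a2, Abcb1a and Ephx1 lay farthest to the right among the called genes, and Cyp2c70 and Slco1b2 farthest to the left. Slc10a2 passed the filter through its dKO level alone and had to differ, so its interval is not read as a test.

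Among 19 tested regulators limma called 2 higher, beside 17.8% of all tested genes, and 0 lower, with 1 lower at an unadjusted p under 0.05. The increases numbered 1 without control replicate 1, and after median-ratio scaling 2 were called lower. Fgfr4, the hepatocyte receptor through which the gut hormone FGF15 lowers Cyp7a1, had 24.2, 28.3 and 26.7 RPKM in dKO libraries, and 14.7, 14.8 and 16.0 RPKM in control libraries. The dKO mean was 1.74 times the control mean (limma adjusted p = 0.00587). Klb, its co-receptor, averaged 14.1 ± 0.72 RPKM in dKO livers and 15.9 ± 0.68 RPKM in control livers, with an adjusted p of 0.315 that was 0.0408 after median-ratio scaling, and Fgf15 was listed at 0 in all 6 libraries. Cebpb, a transcription factor gene, averaged 5.79 ± 1.67 RPKM in dKO livers and 2.50 ± 0.56 RPKM in control livers, with an adjusted p of 0.0170 that was 0.0629 without control replicate 1. Nr5a2, which encodes LRH-1, an activator of Cyp7a1 and Cyp8b1, averaged 13.4 ± 0.73 RPKM in dKO livers and 16.2 ± 1.15 RPKM in control livers; its adjusted p of 0.141 was 0.0354 after median-ratio scaling. Hnf4a averaged 114 ± 5.13 RPKM in dKO livers and 133 ± 12.8 RPKM in control livers (adjusted p = 0.295), and Mafg, an FXR-induced repressor, 13.6 ± 1.40 RPKM in dKO livers and 11.0 ± 1.73 RPKM in control livers (adjusted p = 0.170).

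Markers of liver zones, sex and other cell types were read beside the 17.8% called higher and 2.17% called lower over all tested genes. Of 12 pericentral hepatocyte genes 11 were called lower (7 without control replicate 1), with sums of 1313, 1198 and 650.1 RPKM in dKO libraries and 3648, 2953 and 3183 RPKM in control libraries. These decreases count Lgr5, which passed the filter through its control level alone (means of 0.993 RPKM in dKO and 2.77 RPKM in control livers). Of 12 periportal genes 2 were called higher and 3 lower (1 and 4 after median-ratio scaling, 1 and 1 without control replicate 1 or 3). Of 12 female-biased genes 7 were called lower, with 4 without dKO replicate 3 or control replicate 1 and 3 without control replicate 3. Increases were called for 3 of 9 macrophage genes, and the count ran from 1 (without control replicate 3) to 7 (without control replicate 2) with 1 library left out; after median-ratio scaling 2 were called higher and Marco lower. The 1 increase among 10 stellate cell genes was Timp1, which passed the filter through its dKO level alone and was not called after median-ratio scaling, and the count ran from 0 to 3 with 1 library left out. By limma none of 9 sinusoidal endothelial genes was called in either direction, with 0 at an unadjusted p under 0.05 and 3 increases with sample weights. Of 10 lymphocyte and neutrophil genes 2 were tested, and limma called 0 in either direction, with 1 lower at an unadjusted p under 0.05. Of 12 tested clock genes 2 were called higher, a share near that of all tested genes, with 0 without control replicate 1. The time of day of collection is not given in the labels, and Cyp7a1 is known to vary over the day. The part of these groups in the bile acid gene results was not tested.

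Outside the pathway, the 3 genes (of those averaging 5 RPKM or more) whose levels followed Cyp8b1 most closely over the 6 libraries were Slc16a1 (a monocarboxylate transporter), Rassf8 and Phyhd1. Their Pearson correlations with Cyp8b1 on the log2(RPKM + 1) scale were 0.997, 0.995 and 0.994 (n = 6 libraries, which share the difference between the groups). Slc16a1 had 40.4, 41.0 and 38.6 RPKM in dKO libraries, and 23.4, 23.1 and 30.6 RPKM in control libraries. Control replicate 3 was its highest control, which follows from its choice by correlation with Cyp8b1 over these libraries.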

How the data were processed

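The deposited tables hold 1 value per gene symbol and library. The authors made these RPKM values before they deposited them. Per the submitters' processing notes they used build mm9, and the aligner, counting tool and annotation are not given in the sources used here. The unit was read from the values, since 73.2% to 80.4% of the low values of symbols with a single transcript lay within 0.15 of a whole read at the best spacing, which was chosen on the same values and also gave the depth estimates, so the unit itself was not tested.

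Genes averaging 1 RPKM or more were taken as log2(RPKM + 1) and fitted with limma 3.58.1 in R 4.3.3 (trend, robust moderation, no block), a fit first tested on simulated data. Depth, sequences and figures used Python 3.11.15. Log2 changes are dKO minus control, and fold changes are ratios of mean RPKM. Alternatives were a pseudocount of 0.1, other filters, no robust moderation, 3 scalings, sample weights, a replicate block, an adjusted p under 0.01 and each library left out. The genes and lists were chosen with earlier results of these data known. Named were all 10 genes, up to 3 called genes per list with the smallest p, 13 fixed genes and the 3 genes most like Cyp8b1. Coordinates of promoters are on GRCm38.p6, and those of mm9 were not used here.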

Additional observations from a re-analysis of the deposited data

How the results depend on the processing

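Cyp8b1, Abcc3 and Slc10a1 kept their direction under all 16 alternatives and their calls under the 15 that keep the threshold, with limma adjusted p of at most 0.0497, 0.00938 and 0.0475. At an adjusted p under 0.01, 1 of the 10 genes was called higher (Abcc3) and limma called 0 lower, with 2 lower at an unadjusted p under 0.05. With 1 library left out the 10 genes gave 2 increases and 1 decrease each time. Among the 53 other tested genes of the pathway, increases numbered 12 with sample weights and 4 to 7 with 1 library left out. Decreases there numbered 5 without a filter, 13 after median-ratio and after upper-quartile scaling, 1 at an adjusted p under 0.01 and 2 to 8 with 1 library left out. Over all tested genes increases numbered 873 after median-ratio scaling, 953 after upper-quartile scaling, 727 after quantile normalization, 4133 with sample weights, 490 at an adjusted p under 0.01 and 755 to 1983 with 1 library left out. Decreases over all genes numbered 614, 540 and 554 under the same 3 scalings, 601 with sample weights, 145 without a filter, 49 at an adjusted p under 0.01 and 90 to 241 with 1 library left out.

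The sign turned in 6 genes, none of them called. With 1 library left out, the log2 change of Cyp7a1 ran between -0.20 (without control replicate 1) and 1.09, and that of Nr0b2 between -0.051 (without dKO replicate 3) and 0.56. Cyp27a1 was at -0.052 and -0.011 after median-ratio and upper-quartile scaling. Nr1h4 was at -0.25 (median-ratio), -0.21 (upper-quartile) and -0.086 (quantile), at -0.0031 with sample weights, and between -0.14 (without control replicate 2) and 0.13 with 1 library left out, with -0.0074 without dKO replicate 1. Ostb was at -0.17, -0.13 and -0.22 under these scalings and between -0.19 (without control replicate 3) and 0.29 with 1 library left out, and Stk4 at -0.11, -0.077 and -0.16 under the scalings. The cause was not tested.

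The replicate numbers are shared between the groups, but deviations of libraries with the same number had correlations of -0.08, -0.10 and -0.01, so no pairing was used. With a replicate block, the 10 genes again gave 2 increases and 1 decrease, the other pathway genes 5 and 6, and all tested genes 1513 and 202, and the increase of Abcb4 was lost with an adjusted p of 0.0674. With 3 libraries a group, precision is limited most for Cyp7a1, whose 95% interval was the widest of the 10 genes.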
